A study of Mus musculus with 16 samples.

Results

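In brown adipocytes, the transcriptional response to SR-3420, a compound that starts fat breakdown, differed between cells with and without triacsin C, an inhibitor of fatty acid activation, for 321 of 12786 genes tested (2.51%). The comparison is an interaction, the difference between 2 differences: the change caused by adding SR-3420 to cells pretreated with triacsin C, minus the change caused by adding SR-3420 to cells pretreated with vehicle. Its 10 samples were the count columns of 4 treatment groups, out of 16 columns in the table, and 12786 of the 20295 genes listed had enough counts to be tested. A gene was called when its interaction had an adjusted p under 0.05 in edgeR's quasi-likelihood test. The Benjamini-Hochberg method corrected over all genes tested. Log2 values below are fold changes on that scale, and ± gives an approximate standard error. It was derived as the size of the log2 value divided by the square root of the test's F statistic. Called genes fell into 3 classes by the 2 fitted responses: weaker (same sign, smaller with triacsin C), stronger (same sign, larger with triacsin C) and opposite (different signs).

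The cells were BAT-LgT, a mouse brown preadipocyte line immortalised with SV40 large T antigen, differentiated into adipocytes and treated on day 7. The line is a single one, so the samples are repeat experiments in the same cells and not different animals. The groups were vehicle (2 samples, numbered 2 and 3), SR-3420 after vehicle pretreatment (2 samples, 1 and 3), triacsin C (3 samples) and triacsin C followed by SR-3420 (3 samples). Pretreatment with 5 µM triacsin C or vehicle lasted 1 h and was followed by 3 h with SR-3420 or its vehicle; the labels give SR-3420 as 10 µM, and the study's own text states another dose, so the dose is uncertain. RNA-seq counts summed to between 9452861 and 19156037 per sample. Totals were 14032494 and 10097582 for vehicle, 19156037 and 15667121 for SR-3420, 9452861, 15818919 and 13164376 for triacsin C, and 16265789, 12043744 and 10659704 for triacsin C with SR-3420.

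Brown adipocytes keep triglyceride in lipid droplets and burn its fatty acids in mitochondria to make heat. ABHD5 is the co-activator of the lipase ATGL (Pnpla2), and SR-3420 is a ligand that releases ABHD5 from perilipin at the droplet, so that lipolysis starts without an adrenergic signal. The fatty acids set free are ligands of nuclear receptors of the PPAR family and of cell surface receptors such as FFAR4, or they are joined to coenzyme A by long-chain acyl-CoA synthetases, the enzymes that triacsin C inhibits, before oxidation or storage. The comparison therefore asks how the response to SR-3420 differs when fatty acid activation is inhibited. The study reports a marked rise in basal fatty acid release with triacsin C alone. The arm with triacsin C thus started from a different state, and dependence on fatty acid activation itself was not isolated.

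The label of adipocyte was checked against marker genes. Each of the 12 adipocyte markers had at least 10 counts in every sample, and together they made up 40828 and 34629 CPM (counts scaled to an equal library total) in vehicle. Their sum was 31660 and 23646 with SR-3420, 37183, 44148 and 37823 with triacsin C, and 14581, 13850 and 13238 with triacsin C and SR-3420, so that the 3 samples with both compounds lay below the other 7. Of 10 brown adipocyte markers, 7 reached 10 counts in every sample (Cidea, Cox8b and Prdm16 among them), while Ucp1, the uncoupling protein of thermogenesis, had only 5 to 41 counts, Dio2 at most 2 and Zic1 at most 3. Markers of preadipocytes or fibroblasts were present (8 of 10, led by the collagen gene Col1a1), at 1587 and 1518 CPM in vehicle, 3234 and 2672 with SR-3420, 2261, 1881 and 1747 with triacsin C, and 4084, 3484 and 2815 with both. Macrophage markers summed to 26.0, 28.3 and 30.1 CPM in the 3 triacsin C samples and to 13.4 to 16.2 in the other 7, with 2 of 9 over 10 counts in every sample and Ptprc, Emr1 and Itgam near 0. Endothelial and skeletal muscle markers summed to at most 8.14 and 22.2 CPM. Fewer cells of a type and less RNA per cell cannot be told apart in such samples, and the part of cell composition in the results was not tested.

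The 321 genes were split nearly evenly by direction in the main fit: the interaction was below 0, a response more negative with triacsin C, for 163 (1.27%) and above 0 for 158 (1.24%). The response was weaker for 15 genes (0.117%), stronger for 124 (0.97%) and opposite in sign for 182 (1.42%). Only 23 of the opposite genes (0.18%) were reversed in the strict sense that both responses passed the test, and a further 150 passed only with triacsin C. Across all called genes, 260 responded to SR-3420 only in the presence of triacsin C, 14 only in its absence and 47 in both. SR-3420 changed 964 genes without inhibitor (7.54%) and 4722 with triacsin C (36.9%). With the replicate number as a block over 16 samples these counts were 2438 and 7185, and the DESeq2 Wald test gave 1604 and 5251. The count without inhibitor was lower in every fit leaving out a sample, as given in the section on processing. The 2 arms differ in sample number, 2 against 2 and 3 against 3, and a response that passes in a single arm is not by itself shown to differ. The count of 321 depended on each sample: it was 53 without vehicle sample 3, 55 without SR-3420 sample 1, 138 without vehicle sample 2, and 140 to 179 when any of the other 7 was left out. Other alternatives gave more, 832 by the DESeq2 Wald test, 1520 after a trend over GC content was removed, and 1669 and 3170 when replicates of the same number were blocked, over 16 and 10 samples. Of the 321 genes, 40 were called in every one of the 10 fits leaving out a sample (3 weaker, 10 stronger and 27 opposite), and 72 in none. After a trend over gene span was removed from each sample, 72 genes were called, 22 above and 50 below 0, 60 of them among the 321, and DESeq2 size factors gave 190 above and 140 below. Beside a gene, losses of its call are those in fits leaving out a sample unless another alternative is named; the genes lost without the span trend are listed with that result.

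**Figure D1:**
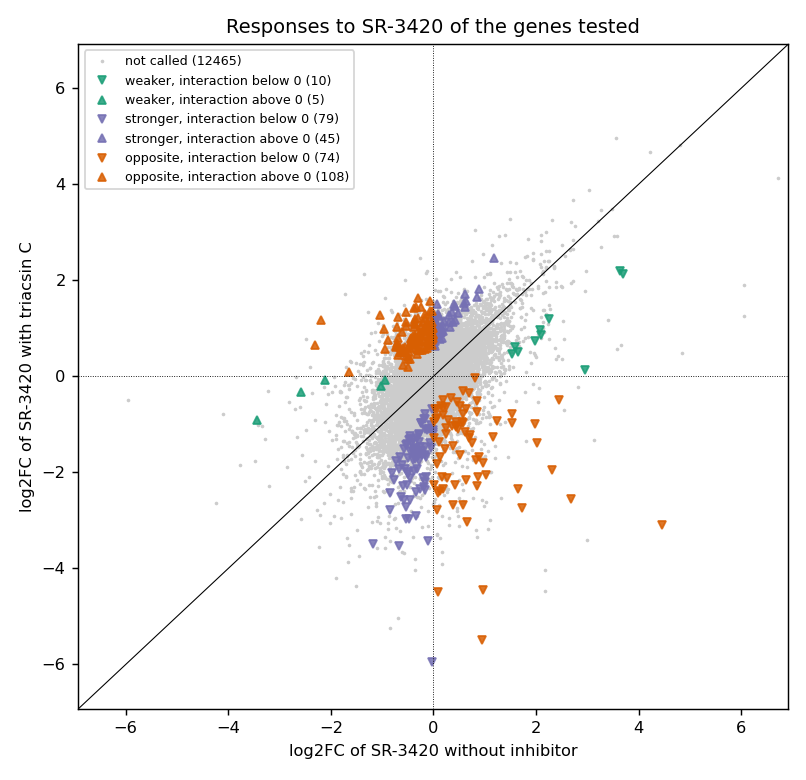
Each point is 1 of the 12786 genes tested, with its log2 fold change for SR-3420 without inhibitor on the horizontal axis and with triacsin C on the vertical axis; the diagonal marks equal responses, and colours and triangles mark the classes and sides of the interaction. The 15 weaker genes lie between the horizontal axis and the diagonal, and the 182 opposite genes lie to the upper left and lower right of the centre.

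Effects of triacsin C at each level of SR-3420 are given for description. Triacsin C in the absence of SR-3420 raised 110 of the 163 genes with an interaction below 0 (4.77% of all genes tested rose) and lowered 154 of the 158 with an interaction above 0 (6.94% of all genes tested fell). In the presence of SR-3420, triacsin C lowered 54 of the 163 and raised 3 (3.55% of all genes fell and 1.02% rose), and it lowered 22 of the 158 and raised 1. For 229 of the 321 genes only the comparison of triacsin C with vehicle passed, for 44 only that in the presence of SR-3420, for 36 both and for 12 neither. Vehicle and triacsin C samples enter both the interaction and these comparisons, and the genes were selected by the interaction, so these counts are not independent of it and do not show which group gave rise to the difference.

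In the median levels of each class by sample, the 79 stronger genes with an interaction below 0 stood at 0.85, 0.84 and 0.78 (log2 above the vehicle mean) in the 3 triacsin C samples and at -0.80, -0.87 and -0.86 when SR-3420 was added. The 45 stronger genes with an interaction above 0 were the mirror image at -0.73, -0.80 and -0.76, then 0.30, 0.32 and 0.42. Opposite genes with an interaction above 0 stood at -1.33, -1.39 and -1.31 with triacsin C and at -0.60, -0.57 and -0.64 with both compounds, and at -0.35 and -0.29 with SR-3420 alone. The 10 weaker genes with an interaction below 0 had already risen to 1.65, 1.57 and 1.60 with triacsin C and reached 2.36, 2.32 and 2.44 with both, against 2.01 and 2.10 with SR-3420 alone.

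**Figure D2:**
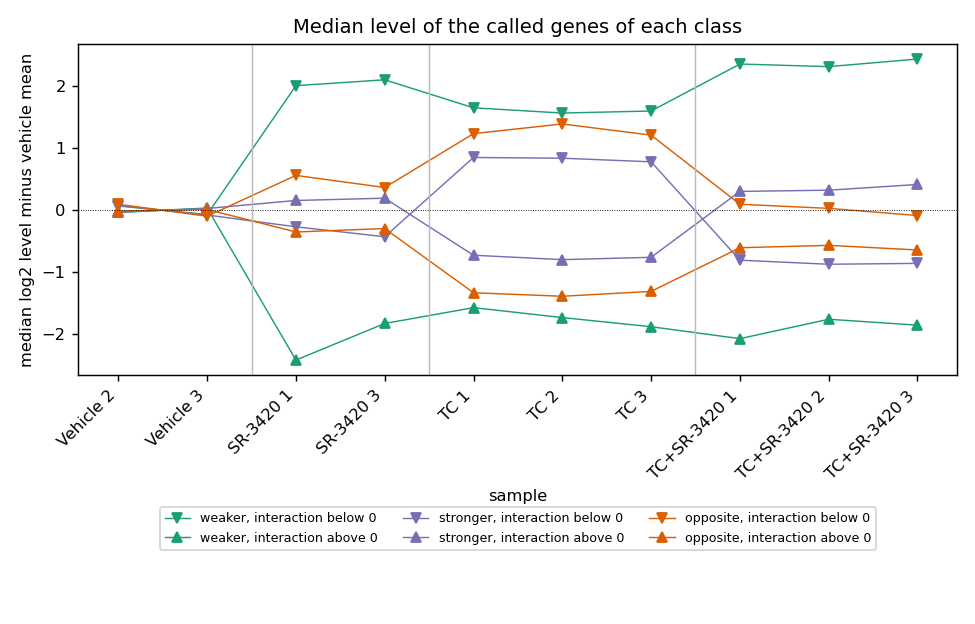
Median over the called genes of each class and side of the interaction, as log2 level minus the mean of the vehicle samples (vertical axis), in each of the 10 samples (horizontal axis). In the 3 triacsin C samples the stronger and opposite genes with an interaction below 0 lie above 0 and those with an interaction above 0 lie below 0.

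Weaker rises included integrated stress response and PPAR target genes that triacsin C by itself had raised. Of the 15 weaker genes, 10 rose less in log2 with SR-3420 when triacsin C was present. Triacsin C alone raised all 10, while 4.77% of all genes tested rose. The other 5 fell less, and triacsin C alone lowered all 5, while 6.94% of all genes tested fell. Vehicle and triacsin C samples enter both the class and these counts, which are therefore not independent of it. Sema3g, a secreted semaphorin that guides vessel and nerve growth (NM_001025379, chromosome 14, 32031059 to 32042697, plus strand, 16 exons, genome build mm9), had TMM-normalized counts of 58.3 and 49.9 in vehicle, 426 and 417 with SR-3420, 106, 139 and 113 with triacsin C, and 157, 123 and 111 with triacsin C and SR-3420. Both samples with SR-3420 alone lay far above the other 8, and the groups with and without SR-3420 overlapped once triacsin C was present. Its response was 2.95 ± 0.35 (adjusted p = 0.00032) without inhibitor and 0.12 ± 0.27 (adjusted p = 0.75) with triacsin C, an interaction of -2.83 ± 0.44 (adjusted p = 0.0063). Leaving out 1 sample ended this call in 1 of 10 fits, without vehicle sample 3 (adjusted p = 0.052).

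Atf3, a stress-induced transcription factor of the ATF/CREB family (NM_007498, chromosome 1, 192994176 to 193007212, minus strand, 5 exons), had normalized counts of 207 and 194 in vehicle, 2328 and 2702 with SR-3420, 1098, 1372 and 1215 with triacsin C, and 5087, 5999 and 5829 with triacsin C and SR-3420. The 4 groups did not overlap, and the highest samples were those with both compounds. Its response was 3.64 ± 0.18 (adjusted p = 3.5e-07) without inhibitor and 2.20 ± 0.14 (adjusted p = 5.2e-07) with triacsin C, an interaction of -1.45 ± 0.22 (adjusted p = 0.0049), and triacsin C alone raised it by 2.61 ± 0.17 (adjusted p = 1.1e-06). So the smaller fold began from a higher level and ended at a higher one. Fgf21, a hormone that fat and liver secrete under metabolic stress, had 12.5 and 7.88 in vehicle, 141 and 131 with SR-3420, 36.8, 40.0 and 46.5 with triacsin C, and 168, 201 and 174 with triacsin C and SR-3420. Vehicle samples were lowest, triacsin C samples intermediate, and the 2 SR-3420 groups highest, 131 being the lowest count among them. Its response was 3.70 ± 0.24 (adjusted p = 3.8e-06) without inhibitor and 2.13 ± 0.17 (adjusted p = 2.5e-06) with triacsin C, an interaction of -1.57 ± 0.29 (adjusted p = 0.014), and the call was lost without vehicle sample 3 (adjusted p = 0.11) and SR-3420 sample 1 (adjusted p = 0.069), with only the 10 samples fitted, at -1.55 (adjusted p = 0.051), and without the span trend, at -1.02 (adjusted p = 0.27). Raw counts of Fgf21 in vehicle were only 12 and 6, which limits the precision of its response without inhibitor.

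Mt2, a metallothionein that binds zinc and copper, had 777 and 696 in vehicle, 2671 and 3116 with SR-3420, 6743, 8545 and 7829 with triacsin C, and 12230.4, 12623 and 13654 with triacsin C and SR-3420. Every triacsin C sample exceeded every SR-3420 sample, and adding SR-3420 raised the level further. Its response was 1.97 ± 0.18 (adjusted p = 3e-05) without inhibitor and 0.74 ± 0.14 (adjusted p = 0.0011) with triacsin C, an interaction of -1.24 ± 0.22 (adjusted p = 0.012); the call was lost without vehicle sample 3 (adjusted p = 0.088), and when a trend was removed from each sample, over gene span at -0.65 (adjusted p = 0.43) or over GC content at -0.80 (adjusted p = 0.1). Hmox1, the heme oxygenase that degrades heme and is a target of the antioxidant factor NRF2, showed the same order at higher counts, 3537 and 3258 in vehicle, 12971 and 15774 with SR-3420, 38858, 41168 and 39080.3 with triacsin C, and 74048, 79941 and 79096 with triacsin C and SR-3420. Its interaction was -1.11 ± 0.22 (adjusted p = 0.017), and the call was lost without vehicle sample 2 (adjusted p = 0.053), vehicle sample 3 (adjusted p = 0.12) and SR-3420 sample 3 (adjusted p = 0.061), and without the span trend, at -0.70 (adjusted p = 0.27).

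Angptl4, a secreted inhibitor of lipoprotein lipase and a PPAR target, had 3361 and 2731 in vehicle, 12841 and 13236 with SR-3420, 8928, 8115 and 8762 with triacsin C, and 15571, 15774 and 15878 with triacsin C and SR-3420. Its levels with SR-3420 were 12841 or more in all 5 samples, and without it 8928 or less. Its response was 2.10 ± 0.14 (adjusted p = 3.8e-06) without inhibitor and 0.87 ± 0.11 (adjusted p = 6.2e-05) with triacsin C, an interaction of -1.23 ± 0.17 (adjusted p = 0.0036). Pdk4, the kinase that shuts off pyruvate dehydrogenase and so spares glucose when fat is burned, had an interaction of -1.07 ± 0.26 (adjusted p = 0.049), close to the threshold, and triacsin C alone raised it by 1.16 ± 0.19 (adjusted p = 0.0013); it was called in none of the 10 fits that left out a sample (adjusted p up to 0.25). Feedback regulators of MAP kinase signalling were also among the weaker genes. Spry4, a Sprouty inhibitor of receptor tyrosine kinases, rose by 1.59 without inhibitor and 0.62 with triacsin C (interaction -0.97 ± 0.16 (adjusted p = 0.0082)), and lost its call without vehicle sample 3 (adjusted p = 0.062). Dusp8, a phosphatase of JNK and p38, had an interaction of -1.07 ± 0.25 (adjusted p = 0.043) and was called in 1 of the 10 fits.

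The promoters of 3 of these genes are shown because they carry letters of motifs that were searched on both strands: CARE (TGATGNAA), the element that ATF4 and C/EBP dimers bind in stress genes, and DR1 (GGNCAAAGG), a short form of the element of PPAR-RXR dimers. They were chosen after the matches were seen. The windows are the 250 bases before the start of the gene, from RefSeq on build GRCm38.p6, a later build than that of the counts. Fgf21 is at chr7:45615491-45615740 (minus strand), Atf3 at chr1:191183334-191183583 (minus strand) and Pdk4 at chr6:5496279-5496528 (minus strand). Capitals mark the matches, CARE in Fgf21 and Atf3 and DR1 in Pdk4.
Fgf21: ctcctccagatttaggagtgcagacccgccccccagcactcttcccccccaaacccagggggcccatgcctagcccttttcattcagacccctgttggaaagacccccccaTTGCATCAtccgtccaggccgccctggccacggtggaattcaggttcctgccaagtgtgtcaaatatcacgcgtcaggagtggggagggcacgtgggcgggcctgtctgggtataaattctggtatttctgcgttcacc
Atf3: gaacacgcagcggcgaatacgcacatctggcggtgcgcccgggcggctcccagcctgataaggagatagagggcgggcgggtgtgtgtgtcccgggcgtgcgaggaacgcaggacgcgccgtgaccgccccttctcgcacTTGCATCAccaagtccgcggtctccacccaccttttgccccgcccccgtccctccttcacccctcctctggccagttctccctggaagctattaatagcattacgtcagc
Pdk4: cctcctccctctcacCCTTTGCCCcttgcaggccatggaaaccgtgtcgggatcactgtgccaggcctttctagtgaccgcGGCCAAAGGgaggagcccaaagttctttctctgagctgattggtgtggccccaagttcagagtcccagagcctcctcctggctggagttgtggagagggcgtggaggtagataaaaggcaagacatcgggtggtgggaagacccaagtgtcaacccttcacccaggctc
In Fgf21 and Atf3 the letters are the same, TTGCATCA, on the opposite strand of the motif as spelled, and Pdk4 holds 2 matches. Among 12363 windows of tested genes, 246 (1.99%) held CARE and 230 (1.86%) held DR1. Only 9649 of the 12786 genes tested and 242 of the 321 called had a window, under 80%, so a comparison of motif shares between classes is void. A match is a string of letters, and whether a factor binds there was not tested.

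Weaker falls were seen for 5 genes, among them an apoptosis gene and 2 receptors. Bmf, a BH3-only protein that promotes apoptosis, had 328 and 284 in vehicle, 38.6 and 17.2 with SR-3420, 64.3, 74.0 and 70.2 with triacsin C, and 42.9, 34.9 and 33.4 with triacsin C and SR-3420. The 2 vehicle samples lay above all others, and samples with triacsin C alone were above the 5 with SR-3420. Its response was -3.44 ± 0.32 (adjusted p = 4.1e-05) without inhibitor and -0.90 ± 0.26 (adjusted p = 0.014) with triacsin C, an interaction of 2.54 ± 0.40 (adjusted p = 0.0067). Ptgfr, the receptor of prostaglandin F2alpha, had 278 and 354 in vehicle, 58.0 and 87.8 with SR-3420, 73.5, 64.3 and 84.3 with triacsin C, and 73.9, 62.5 and 73.5 with triacsin C and SR-3420. Vehicle was again highest, and the 8 samples with either compound overlapped. Its response was -2.11 ± 0.26 (adjusted p = 0.00045) without inhibitor and -0.08 ± 0.22 (adjusted p = 0.8) with triacsin C, an interaction of 2.04 ± 0.34 (adjusted p = 0.0098), with the call lost without vehicle sample 3 (adjusted p = 0.062) and SR-3420 sample 1 (adjusted p = 0.066). Fgfr2, a fibroblast growth factor receptor, had an interaction of 0.86 ± 0.20 (adjusted p = 0.041) and was called in none of the 10 fits. Irf4, a transcription factor that promotes lipolysis and thermogenesis in fat, had one of 0.83 ± 0.18 (adjusted p = 0.029) and was called in 1. Triacsin C alone lowered Fgfr2 by -1.57 ± 0.14 (adjusted p = 1.1e-05) and Irf4 by -1.15 ± 0.12 (adjusted p = 4.9e-05).

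Stronger falls included genes of fatty acid oxidation, peroxisomes and triglyceride synthesis. All 79 fell with SR-3420 in the presence of triacsin C, 72 of them only there and 7 in both arms. Cpt2, the inner-membrane carnitine palmitoyltransferase that hands long-chain acyl groups to the mitochondrial matrix (NM_009949, chromosome 4, 107576587 to 107596194, minus strand, 5 exons), had normalized counts of 3132 and 2556 in vehicle, 1962 and 1907 with SR-3420, 3107, 3604 and 3667 with triacsin C, and 908, 999 and 825 with triacsin C and SR-3420. The 3 samples with both compounds were lowest, at 999 or less against 1907 or more in the other 7. Its response was -0.56 ± 0.17 (adjusted p = 0.065) without inhibitor and -1.93 ± 0.14 (adjusted p = 1.7e-06) with triacsin C, an interaction of -1.37 ± 0.22 (adjusted p = 0.0079), and the call was lost without vehicle sample 3 (adjusted p = 0.062). Triacsin C alone gave 0.28 ± 0.16 (adjusted p = 0.3), a difference that did not pass.

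Other enzymes of mitochondrial beta-oxidation in this class also had their lowest counts in the 3 samples with both compounds. Acadvl, the very-long-chain acyl-CoA dehydrogenase of the opening step, had 8536 and 7306 in vehicle, 5570.4 and 5553 with SR-3420, 9119, 10229 and 9741 with triacsin C, and 3519, 3953 and 3563 with triacsin C and SR-3420. Its interaction was -0.89 ± 0.18 (adjusted p = 0.022). Eci1, an enoyl-CoA isomerase for unsaturated chains, had 5274 and 3728 in vehicle and 2130, 2174 and 1826 with both compounds, an interaction of -1.33 ± 0.27 (adjusted p = 0.023). Hadha, the alpha subunit of the trifunctional protein, had an interaction of -0.70 ± 0.17 (adjusted p = 0.043), and Crat, the carnitine acetyltransferase, one of -1.46 ± 0.34 (adjusted p = 0.041); both overlap another gene of the table, and since the use of strand in counting is not given in the sources used here, their values are uncertain. Of these 4 genes Eci1 was called in 6 of the 10 fits leaving out a sample, Acadvl in 3, and Hadha and Crat in 0.

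In peroxisomes, Ech1, a dienoyl-CoA isomerase, had 3359 and 2606 in vehicle, 2608 and 2314 with SR-3420, 3457, 3888 and 3670.5 with triacsin C, and 1611, 1412 and 1266 with triacsin C and SR-3420, and Pex11a, a peroxisome division protein and PPAR target, had 1757 and 1382 in vehicle, 1401 and 1223 with SR-3420, 1783, 1989 and 1829 with triacsin C, and 780.1, 672 and 566 with triacsin C and SR-3420. For each gene the 3 samples with both compounds lay below the other 7. The interactions were -1.08 ± 0.25 (adjusted p = 0.04) for Ech1 and -1.21 ± 0.26 (adjusted p = 0.031) for Pex11a. Pex19, the import receptor for peroxisomal membrane proteins, had an interaction of -0.73 ± 0.17 (adjusted p = 0.042). Ech1 and Pex19 were called in none of the 10 fits and Pex11a in 1.

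Genes of triglyceride synthesis and storage moved likewise. Gpd1, which makes glycerol 3-phosphate, the backbone of triglyceride, had 59355 and 44284 in vehicle, 45179 and 40822 with SR-3420, 55414, 60953 and 54322 with triacsin C, and 19445, 19190.1 and 17540.1 with triacsin C and SR-3420. Fitm2, an endoplasmic reticulum protein needed to bud lipid droplets, had 4795 and 4065 in vehicle, 4455 and 3448 with SR-3420, 5967, 5504 and 5084 with triacsin C, and 1971, 1812 and 1551 with triacsin C and SR-3420. Aqp7, the channel through which adipocytes release glycerol, had 1583 and 1622 in vehicle, 1326 and 1418 with SR-3420, 1676, 1577 and 1796 with triacsin C, and 562, 516 and 553 with triacsin C and SR-3420. All 3 genes were lowest, without overlap, in the samples with both compounds, and triacsin C alone changed none of them past the threshold. Their interactions were -1.33 ± 0.28 (adjusted p = 0.029) for Gpd1, -1.47 ± 0.28 (adjusted p = 0.017) for Fitm2 and -1.41 ± 0.34 (adjusted p = 0.047) for Aqp7. Fitm2 lost its call without vehicle sample 3 (adjusted p = 0.12) and SR-3420 sample 1 (adjusted p = 0.11), whereas Gpd1 was called in 1 of the 10 fits and Aqp7 in none. In the respiratory chain, Sdha, the catalytic subunit of succinate dehydrogenase, had an interaction of -0.86 ± 0.20 (adjusted p = 0.04) and Ndufv3, a complex I subunit, one of -0.96 ± 0.19 (adjusted p = 0.018). They were called in 0 and 4 of the 10 fits.

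Among genes whose normalized count averaged 50 or more, the largest stronger falls described here had a different profile, in which triacsin C alone raised the level. Ppp1r3c, a subunit that brings protein phosphatase 1 to glycogen and promotes its synthesis, had 401 and 445 in vehicle, 351 and 435 with SR-3420, 1183, 1128 and 1429 with triacsin C, and 110.4, 98.5 and 136 with triacsin C and SR-3420. The triacsin C samples were highest and those with both compounds lowest, while vehicle and SR-3420 overlapped. Its response was -0.11 ± 0.42 (adjusted p = 0.92) without inhibitor and -3.44 ± 0.38 (adjusted p = 2.5e-05) with triacsin C, an interaction of -3.33 ± 0.57 (adjusted p = 0.01), and the call was lost without vehicle sample 2 (adjusted p = 0.051) and vehicle sample 3 (adjusted p = 0.065). Tmem79, a membrane protein known from skin barrier formation (NM_024246, chromosome 3, 88132575 to 88138355, minus strand, 4 exons), had 111 and 118 in vehicle, 79.0 and 78.7 with SR-3420, 562, 549 and 594 with triacsin C, and 83.0, 88.9 and 86.9 with triacsin C and SR-3420. Only the 3 triacsin C samples stood apart, at 549 or more against 118 or less in the other 7. Its response was -0.54 ± 0.20 (adjusted p = 0.12) without inhibitor and -2.72 ± 0.17 (adjusted p = 4.8e-07) with triacsin C, an interaction of -2.18 ± 0.25 (adjusted p = 0.0016). Gp1ba, known as a platelet receptor subunit, had 36.5 and 27.6 in vehicle, 33.6 and 23.5 with SR-3420, 138, 131 and 162 with triacsin C, and 33.8, 26.4 and 22.7 with triacsin C and SR-3420. Its interaction was -2.19 ± 0.38 (adjusted p = 0.011), lost without vehicle sample 3 (adjusted p = 0.077) and SR-3420 sample 1 (adjusted p = 0.073). The uncharacterised gene 2010003K11Rik had an interaction of -2.43 ± 0.37 (adjusted p = 0.0061) and was called in all 10 fits.

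A few genes of protein folding and pyruvate use were also highest with triacsin C alone. Hspb8, a small heat shock protein of selective autophagy, had 2440.0 and 2551 in vehicle, 1996 and 2224 with SR-3420, 4841, 4464 and 5119 with triacsin C, and 2326, 2356 and 2659 with triacsin C and SR-3420. It was highest in triacsin C and similar in the other groups, with an interaction of -0.73 ± 0.17 (adjusted p = 0.041). Hspa1l, an Hsp70 protein, had an interaction of -1.17 ± 0.27 (adjusted p = 0.041). Pdp2, the phosphatase that reactivates pyruvate dehydrogenase, had 901 and 782 in vehicle, 775 and 555 with SR-3420, 1527, 1494 and 1484 with triacsin C, and 546, 501 and 520.0 with triacsin C and SR-3420. Its interaction was -1.18 ± 0.21 (adjusted p = 0.012), lost without vehicle sample 3 (adjusted p = 0.089) and SR-3420 sample 1 (adjusted p = 0.072); Hspb8 and Hspa1l were called in none of the 10 fits.

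Stronger rises were seen for 45 genes, each of which spans over 100 kb of the genome. None of the 45 was called after the trend over gene span, described below, was removed from each sample: the interactions printed in this and the next paragraph then became 0.74 (adjusted p = 0.059) for Irf2, 0.84 (adjusted p = 0.15) for Trabd2b, 0.72 (adjusted p = 0.23) for Hivep2, 0.37 (adjusted p = 0.34) for Atf6, 0.33 (adjusted p = 0.52) for Uvrag, 0.77 (adjusted p = 0.18) for Usp6nl and 0.64 (adjusted p = 0.23) for Lyst. Irf2, an interferon regulatory factor that represses interferon-driven genes (NM_008391, chromosome 8, 47825099 to 47932812, plus strand, 9 exons), had 775 and 803 in vehicle, 762 and 819 with SR-3420, 345, 389 and 353 with triacsin C, and 834, 783 and 898 with triacsin C and SR-3420. The 3 triacsin C samples lay at 389 or less, and the other 7 overlapped between 762 and 898. Its response was 0.00 ± 0.13 (adjusted p = 1) without inhibitor and 1.21 ± 0.11 (adjusted p = 6.5e-06) with triacsin C, an interaction of 1.21 ± 0.17 (adjusted p = 0.0032). Trabd2b, a membrane protease that inactivates Wnt proteins, had 915 and 866 in vehicle, 1009.7 and 872 with SR-3420, 360.0, 389 and 351 with triacsin C, and 1001, 1096 and 1055 with triacsin C and SR-3420. As for Irf2, only triacsin C samples were low, and its response was 0.08 ± 0.14 (adjusted p = 0.8) without inhibitor and 1.52 ± 0.12 (adjusted p = 2.5e-06) with triacsin C, an interaction of 1.44 ± 0.18 (adjusted p = 0.0028). Hivep2, a large zinc finger factor, had 848 and 802 in vehicle, 1604 and 2158 with SR-3420, 568, 475 and 526 with triacsin C, and 2728, 3035 and 2971 with triacsin C and SR-3420. It rose in both arms and from a lower start with triacsin C, a response of 1.19 ± 0.19 (adjusted p = 0.002) without inhibitor and 2.48 ± 0.16 (adjusted p = 5.2e-07) with triacsin C, an interaction of 1.29 ± 0.24 (adjusted p = 0.015). The Hivep2 call was lost without vehicle sample 2 (adjusted p = 0.055), vehicle sample 3 (adjusted p = 0.068) and SR-3420 sample 1 (adjusted p = 0.095).

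Atf6, the endoplasmic reticulum sensor of unfolded proteins, likewise rose in both arms, with counts of 1268 and 1393 in vehicle, 2069.9 and 2085 with SR-3420, 947, 809 and 858 with triacsin C, and 2459, 2523 and 2797 with triacsin C and SR-3420. Its response was 0.64 ± 0.13 (adjusted p = 0.01) without inhibitor and 1.57 ± 0.11 (adjusted p = 9.7e-07) with triacsin C, an interaction of 0.93 ± 0.17 (adjusted p = 0.014), and the call was lost without vehicle sample 3 (adjusted p = 0.096) and SR-3420 sample 1 (adjusted p = 0.077). Uvrag, a partner of beclin in autophagy, had an interaction of 0.95 ± 0.18 (adjusted p = 0.015), lost without vehicle sample 2 (adjusted p = 0.063), vehicle sample 3 (adjusted p = 0.06) and SR-3420 sample 1 (adjusted p = 0.095). Usp6nl, a GTPase-activating protein for Rab5, and Lyst, the lysosomal trafficking regulator, had interactions of 1.27 ± 0.30 (adjusted p = 0.041) and 1.21 ± 0.28 (adjusted p = 0.037), each called in 1 of the 10 fits.

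**Figure D3:**
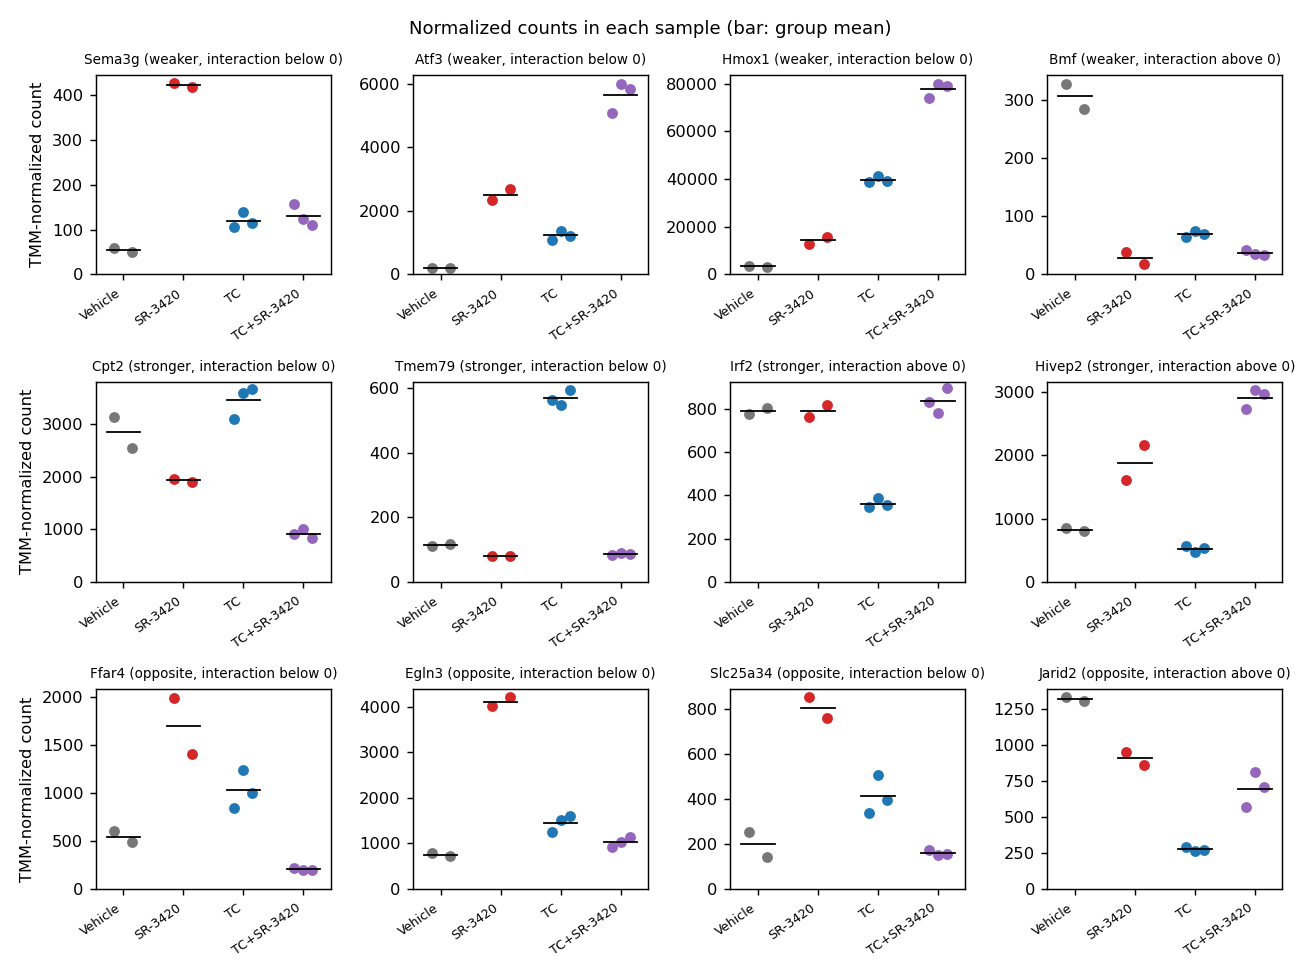
TMM-normalized counts (vertical axis) of 12 called genes in the 10 samples, by group, with a bar at each group mean; the upper panels are weaker, the middle panels stronger and the lower panels opposite. For Cpt2 and Ffar4 the samples with both compounds have the lowest counts, and for Tmem79, Irf2 and Jarid2 the 3 triacsin C samples stand apart from the others.

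Opposite responses included a fatty acid receptor, a mitochondrial carrier and hypoxia-responsive genes, and for some of them both the rise with SR-3420 alone and the fall with it after triacsin C passed. Ffar4, the cell surface receptor of long-chain fatty acids (NM_181748, chromosome 19, 38171569 to 38188753, plus strand, 3 exons), had 600.1 and 488 in vehicle, 1997 and 1408 with SR-3420, 847, 1244 and 1002 with triacsin C, and 223, 193 and 194 with triacsin C and SR-3420. SR-3420 samples were highest and those with both compounds lowest, with no overlap between any of these groups. Its response was 1.65 ± 0.37 (adjusted p = 0.018) without inhibitor and -2.34 ± 0.32 (adjusted p = 0.0001) with triacsin C, an interaction of -3.99 ± 0.49 (adjusted p = 0.0024). Slc25a34, a mitochondrial inner-membrane carrier, had 254 and 143 in vehicle, 854 and 759.9 with SR-3420, 339, 508 and 398 with triacsin C, and 175, 149 and 154 with triacsin C and SR-3420. The samples with both compounds overlapped vehicle, and both other groups lay above them. Its response was 2.02 ± 0.39 (adjusted p = 0.0067) without inhibitor and -1.38 ± 0.31 (adjusted p = 0.0038) with triacsin C, an interaction of -3.40 ± 0.50 (adjusted p = 0.0048). Tmem82, a membrane protein, had 27.1 and 17.1 in vehicle, 101 and 122 with SR-3420, 127, 136 and 143 with triacsin C, and 36.5, 42.1 and 26.7 with triacsin C and SR-3420. Each compound alone raised it, and together they left it near vehicle, a response of 2.31 ± 0.41 (adjusted p = 0.0041) without inhibitor and -1.94 ± 0.32 (adjusted p = 0.00043) with triacsin C, an interaction of -4.25 ± 0.52 (adjusted p = 0.0023).

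Egln3, the prolyl hydroxylase that marks hypoxia-inducible factor for degradation and is itself induced by it (NM_028133, chromosome 12, 55279968 to 55304861, minus strand, 5 exons), had 780.4 and 720.1 in vehicle, 4015 and 4220.0 with SR-3420, 1258, 1516 and 1596 with triacsin C, and 925, 1023 and 1142 with triacsin C and SR-3420. Both SR-3420 samples lay above the highest of the other 8, at 1596. Its response was 2.46 ± 0.32 (adjusted p = 0.00063) without inhibitor and -0.50 ± 0.25 (adjusted p = 0.13) with triacsin C, an interaction of -2.96 ± 0.40 (adjusted p = 0.0032). Ankrd37, a hypoxia-induced ankyrin protein, had 66.7 and 69.7 in vehicle, 186 and 207 with SR-3420, 214, 252 and 228 with triacsin C, and 130.5, 147 and 129.7 with triacsin C and SR-3420. Either compound raised it, and its counts with both lay between vehicle and the rest. Its response was 1.53 ± 0.20 (adjusted p = 0.00069) without inhibitor and -0.77 ± 0.16 (adjusted p = 0.0021) with triacsin C, an interaction of -2.30 ± 0.26 (adjusted p = 0.0014), although Ankrd37 overlaps another gene and its counts are uncertain. Pfkfb3, the kinase that stimulates glycolysis, had 4085 and 3677 in vehicle, 5748 and 5780.5 with SR-3420, 3205, 3144 and 3166 with triacsin C, and 1850.4, 1855 and 1789 with triacsin C and SR-3420. Its order ran from SR-3420 through vehicle and triacsin C to both compounds, without overlap. Its response was 0.57 ± 0.25 (adjusted p = 0.2) without inhibitor and -0.79 ± 0.21 (adjusted p = 0.0089) with triacsin C, an interaction of -1.36 ± 0.33 (adjusted p = 0.046), so its rise without inhibitor did not pass, and it was called in none of the 10 fits. Pgam1, a glycolytic mutase, rose with SR-3420 alone by 0.81 ± 0.14 (adjusted p = 0.0029) and gave -0.04 ± 0.11 (adjusted p = 0.81) with triacsin C (interaction -0.85 ± 0.17 (adjusted p = 0.024), called in 4 of the 10 fits).

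Among secreted factors and their enzymes, Apln, the adipokine apelin, had 801 and 852 in vehicle, 1721 and 2165 with SR-3420, 695, 932 and 1134 with triacsin C, and 432, 455 and 560.2 with triacsin C and SR-3420. It was highest with SR-3420 alone and lowest with both compounds. Its response was 1.23 ± 0.29 (adjusted p = 0.021) without inhibitor and -0.93 ± 0.24 (adjusted p = 0.0074) with triacsin C, an interaction of -2.17 ± 0.37 (adjusted p = 0.011), with the call lost without vehicle sample 2 (adjusted p = 0.051) and vehicle sample 3 (adjusted p = 0.065). Ptges, which makes prostaglandin E2, had 212 and 177 in vehicle, 375 and 325 with SR-3420, 449, 529 and 460.4 with triacsin C, and 307, 306 and 247 with triacsin C and SR-3420. Vehicle was lowest and triacsin C highest. Its response was 0.85 ± 0.23 (adjusted p = 0.038) without inhibitor and -0.74 ± 0.18 (adjusted p = 0.0064) with triacsin C, an interaction of -1.58 ± 0.29 (adjusted p = 0.014), with the call lost without vehicle sample 3 (adjusted p = 0.096) and SR-3420 sample 1 (adjusted p = 0.074).

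Nuclear receptors and oxidation genes were also in the opposite class. Ppara, the PPAR that drives fatty acid oxidation, had 1311 and 1164 in vehicle, 1751 and 1608 with SR-3420, 723, 723 and 641 with triacsin C, and 283, 393 and 349 with triacsin C and SR-3420. The 2 groups with triacsin C lay below the others without overlap, and lowest were the samples with both compounds. Its response was 0.44 ± 0.27 (adjusted p = 0.38) without inhibitor and -1.03 ± 0.23 (adjusted p = 0.0032) with triacsin C, an interaction of -1.47 ± 0.35 (adjusted p = 0.047). Rxrg, a retinoid X receptor and partner of PPARs, had an interaction of -1.49 ± 0.35 (adjusted p = 0.041). Cpt1b, the outer-membrane carnitine palmitoyltransferase of muscle and brown fat, and Ucp3, an uncoupling protein homologue, had interactions of -1.30 ± 0.31 (adjusted p = 0.046) and -2.15 ± 0.51 (adjusted p = 0.045). Of these 4 genes, Rxrg was called in 1 of the 10 fits leaving out a sample and the others in none.

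Acot4, a peroxisomal thioesterase that splits acyl-CoA, was called in every one of those fits. It had 50.0 and 36.8 in vehicle, 54.6 and 44.3 with SR-3420, 109, 104 and 118 with triacsin C, and 18.2, 19.2 and 28.1 with triacsin C and SR-3420. Triacsin C samples were highest and samples with both compounds lowest, with vehicle and SR-3420 overlapping between them. Its response was 0.18 ± 0.28 (adjusted p = 0.77) without inhibitor and -2.34 ± 0.24 (adjusted p = 1.6e-05) with triacsin C, an interaction of -2.53 ± 0.37 (adjusted p = 0.0048). The gene Pmp2 encodes a fatty acid-binding protein of the FABP family and had 3.13 and 6.57 in vehicle, 6.72 and 11.8 with SR-3420, 887, 746 and 881 with triacsin C, and 17.3, 16.8 and 21.4 with triacsin C and SR-3420. Its 3 triacsin C samples stood far above all others. Its response was 0.95 ± 0.51 (adjusted p = 0.31) without inhibitor and -5.50 ± 0.29 (adjusted p = 2e-07) with triacsin C. The interaction was -6.45 ± 0.57 (adjusted p = 0.00041). Raw counts were 3 and 5 in vehicle, so its folds against vehicle are imprecise, and reads of related FABP genes could bear on such low counts. Mars2, the mitochondrial methionyl-tRNA synthetase, and Slc25a51, the mitochondrial NAD carrier, had interactions of -0.89 ± 0.21 (adjusted p = 0.041) and -0.67 ± 0.16 (adjusted p = 0.042), called in 1 and 0 of the 10 fits.

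The DR1 letters also occur in the promoters of Acot4 at chr12:84038129-84038378 (plus strand) and Ech1 at chr7:28825088-28825337 (plus strand), shown as genes of peroxisomal fatty acid oxidation from the opposite and the stronger class. Source, build and the meaning of the capitals are as for the promoters above. The match in Acot4 ends 2 bases before the start and that in Ech1 ends 186 bases before it.
Acot4: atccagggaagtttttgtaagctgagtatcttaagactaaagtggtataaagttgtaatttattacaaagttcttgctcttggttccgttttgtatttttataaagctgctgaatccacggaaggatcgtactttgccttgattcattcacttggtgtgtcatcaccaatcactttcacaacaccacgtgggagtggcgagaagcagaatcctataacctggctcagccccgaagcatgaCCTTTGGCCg
Ech1: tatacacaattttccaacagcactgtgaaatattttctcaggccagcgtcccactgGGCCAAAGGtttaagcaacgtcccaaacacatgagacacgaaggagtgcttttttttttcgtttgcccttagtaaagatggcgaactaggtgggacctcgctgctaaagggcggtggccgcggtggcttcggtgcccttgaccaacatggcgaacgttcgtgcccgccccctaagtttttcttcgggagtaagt
Acot4 holds the letters as CCTTTGGCC, on the opposite strand of the motif as spelled, and Ech1 as GGCCAAAGG.

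Opposite responses with an interaction above 0 made up the largest class, 108 genes. Triacsin C alone lowered 106 of them, while 6.94% of all genes tested fell. That count is not independent of the interaction that selected the genes. Of the 108, 96 spanned over 100 kb, and 10 were still called after the trend over gene span was removed. On the side below 0, 26 of the 74 opposite genes were. Jarid2, a subunit of the Polycomb repressive complex PRC2 (NM_001205044, chromosome 13, 44826143 to 45017012, plus strand, 19 exons), had 1335 and 1305 in vehicle, 950.1 and 862 with SR-3420, 291, 264 and 268 with triacsin C, and 568, 809.9 and 706 with triacsin C and SR-3420. The 4 groups did not overlap: vehicle was highest, triacsin C lowest, and SR-3420 lowered the level without the inhibitor and raised it with it. Its response was -0.54 ± 0.15 (adjusted p = 0.047) without inhibitor and 1.34 ± 0.13 (adjusted p = 1.1e-05) with triacsin C, an interaction of 1.88 ± 0.20 (adjusted p = 0.0012). Esr1, estrogen receptor alpha, had 498 and 401 in vehicle, 219 and 241 with SR-3420, 58.2, 67.2 and 95.1 with triacsin C, and 127, 127 and 187 with triacsin C and SR-3420. The order of its groups was that of Jarid2. Its response was -0.97 ± 0.24 (adjusted p = 0.029) without inhibitor and 0.99 ± 0.21 (adjusted p = 0.0026) with triacsin C, an interaction of 1.96 ± 0.32 (adjusted p = 0.0087), with the call lost without SR-3420 sample 1 (adjusted p = 0.062). Ralgps1, an exchange factor for Ral GTPases, had 222 and 225 in vehicle, 112 and 104 with SR-3420, 15.3, 26.3 and 25.9 with triacsin C, and 47.5, 66.1 and 53.5 with triacsin C and SR-3420. Its response was -1.05 ± 0.23 (adjusted p = 0.014) without inhibitor and 1.27 ± 0.22 (adjusted p = 0.00055) with triacsin C, an interaction of 2.32 ± 0.31 (adjusted p = 0.0032); it overlaps another gene and is uncertain. Abcc4, a transporter that exports cyclic nucleotides and prostaglandins, had 566 and 515 in vehicle, 338 and 318 with SR-3420, 221, 215 and 199.9 with triacsin C, and 298, 352 and 316 with triacsin C and SR-3420. Triacsin C samples were lowest, and the 2 SR-3420 groups overlapped. Its response was -0.72 ± 0.14 (adjusted p = 0.0079) without inhibitor and 0.60 ± 0.12 (adjusted p = 0.0014) with triacsin C, an interaction of 1.32 ± 0.18 (adjusted p = 0.0033).

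Ncoa1, a coactivator of nuclear receptors, had 1894 and 1948 in vehicle, 1669 and 1491 with SR-3420, 519, 449 and 473 with triacsin C, and 828, 773 and 795 with triacsin C and SR-3420. Triacsin C samples were lowest and those with both compounds next, an interaction of 1.02 ± 0.20 (adjusted p = 0.021) that was called in 3 of the 10 fits. Osbpl3, an oxysterol-binding protein, had an interaction of 1.05 ± 0.18 (adjusted p = 0.011), lost without vehicle sample 3 (adjusted p = 0.052) and SR-3420 sample 1 (adjusted p = 0.072). Pde8a, a phosphodiesterase specific for cAMP, had one of 0.74 ± 0.17 (adjusted p = 0.037), called in 1 of the 10 fits. Reps2, an endocytic adaptor, had 88.6 and 175 in vehicle, 21.8 and 35.3 with SR-3420, 24.5, 13.6 and 18.4 with triacsin C, and 33.8, 30.0 and 62.8 with triacsin C and SR-3420. Vehicle was above the rest, and its interaction of 3.37 ± 0.66 (adjusted p = 0.018) was lost without vehicle sample 3 (adjusted p = 0.12), SR-3420 sample 1 (adjusted p = 0.12), triacsin C sample 2 (adjusted p = 0.061) and triacsin C sample 3 (adjusted p = 0.051). Zfhx4, a large homeodomain factor, had an interaction of 1.92 ± 0.43 (adjusted p = 0.034), called in 2 of the 10 fits.

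The 23 strictly reversed genes comprised 9 that rose without inhibitor and fell with triacsin C, and 14 that did the opposite. The 9 included Tmem82, Ffar4, Slc25a34, Ankrd37, Apln, Ptges, Enc1 and Fzd5. The 14 were Ralgps1, Esr1, Jarid2, Rap1gap2, Svil, Ssbp3, Ncoa2, D930015E06Rik, Abcc4, Kif13b, Man1a, Mfsd7c, Smarca2 and Zfp704. Some of these were named after their values were seen. Enc1, an actin-associated protein, had 2395 and 2293 in vehicle, 3464 and 2893 with SR-3420, 5628, 5589 and 5431 with triacsin C, and 3132, 2769 and 2762 with triacsin C and SR-3420. Its response was 0.44 ± 0.12 (adjusted p = 0.047) without inhibitor and -0.94 ± 0.10 (adjusted p = 2e-05) with triacsin C, an interaction of -1.38 ± 0.16 (adjusted p = 0.0016). Ncoa2, a coactivator of nuclear receptors related to Ncoa1, had 1373 and 1299.7 in vehicle, 861 and 799 with SR-3420, 332, 271 and 313 with triacsin C, and 543, 541 and 515 with triacsin C and SR-3420. Its response was -0.69 ± 0.13 (adjusted p = 0.0054) without inhibitor and 0.80 ± 0.11 (adjusted p = 8.7e-05) with triacsin C, an interaction of 1.49 ± 0.17 (adjusted p = 0.0014). Svil, the actin-binding supervillin, had a response of -0.89 ± 0.13 (adjusted p = 0.0011) without inhibitor and 0.76 ± 0.11 (adjusted p = 0.00013) with triacsin C, an interaction of 1.66 ± 0.17 (adjusted p = 0.001). Enc1, Ncoa2 and Svil were called in every one of the 10 fits leaving out a sample. Triacsin C samples were highest for Enc1 and lowest for Ncoa2 and Svil. Of the reversed genes only listed here, Rap1gap2, Ssbp3 and D930015E06Rik were also called in all 10 fits, Kif13b and Man1a in 9, Smarca2, Zfp704 and Fzd5 in 8 and Mfsd7c in 1.

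Several genes of other functions were called in all 10 fits and were likewise chosen after their values were seen. Itpr2, an inositol trisphosphate receptor that releases calcium from the endoplasmic reticulum, had an interaction of 1.18 ± 0.20 (adjusted p = 0.0098). Plce1, a phospholipase C that forms inositol trisphosphate, had 1.51 ± 0.23 (adjusted p = 0.0063), and Prkce, protein kinase C epsilon, 1.46 ± 0.21 (adjusted p = 0.0037). Triacsin C alone lowered all 3, with log2 values of -1.54 (adjusted p = 1.3e-05) for Itpr2 and -2.57 (adjusted p = 3.6e-07) for Prkce. On the side below 0, Hexim1, an inhibitor of the elongation kinase P-TEFb, had -1.20 ± 0.16 (adjusted p = 0.0029), and Daam2, a formin that links Wnt signalling to actin, -1.65 ± 0.22 (adjusted p = 0.0032). Kctd12, an auxiliary subunit of GABA-B receptors, had -2.79 ± 0.37 (adjusted p = 0.0032).

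By function, the 41 lists of genes examined held 1597 genes tested, and 52 of them were called, 42 below 0 and 10 above. In 26 lists at least 1 gene was called, in 17 of them only below 0, in 5 only above and in 4 on both sides. The median interaction of all genes tested was -0.04, and 30 of the 41 lists had a lower one. Of all genes tested, 1.27% were called below 0 and 2.51% on either side, and the percentages of a list given below count its called genes on either side. Lists share genes, and they were described by counts and medians without a test.

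Lists of fat use and respiration had medians from -1.04 to -0.58. Acyl-CoA synthetases and thioesterases, with a median of -0.47 and 1 of 22 called (4.55%), lay nearer to all genes. So did lipogenesis, elongation and desaturation, with a median of -0.37 and 0 of 23 called (3 below and 1 above 0 by DESeq2). Among 34 PPAR-responsive lipid genes, 9 (26.5%) were called below 0 (among them Aqp7, Ucp3, Cpt1b, Pex11a, Pdk4, Fgf21, Angptl4 and Acot4) and 0 above, with 32 of 34 below 0 and a median of -1.04. Thermogenic genes had 3 of 19 called (15.8%; Ppara, Cpt1b and Pdk4) and a median of -1.01. For lipid droplet proteins and lipases only Fitm2 was called of 21 (4.76%), yet all 21 values were below 0, median -0.94. Mitochondrial beta-oxidation had 6 of 24 called (25%; Crat, Cpt1b, Cpt2, Eci1, Acadvl and Hadha), all 24 below 0 and a median of -0.68. Peroxisomal fatty acid oxidation had 5 of 25 called (20%; among them Pex19, Pex11a, Ech1 and Acot4) and a median of -0.65. Of 82 nuclear-encoded respiratory chain subunits, 77 were below 0 (median -0.65), while the 2 called (2.44%) are a share like that of all genes. Triglyceride synthesis and glyceroneogenesis had 2 of 19 called (10.53%) and a median of -0.58. The 12 adipocyte markers, which were kept apart from the 41 lists, had a median interaction of -1.05, with 11 below 0 and 0 called. Their median responses were -0.23 without inhibitor and -1.34 with triacsin C. The medians of the fat use lists thus lay below 0 like that of the cell type markers. The part of cell composition was not tested.

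Median responses in these lists were lower in the arm with triacsin C. The beta-oxidation list had a median response to SR-3420 of -0.36 without inhibitor and -0.99 with triacsin C, the respiratory chain -0.26 and -0.90, and lipid droplet proteins and lipases -0.16 and -0.94. PPAR-responsive genes went from 0.19 to -0.64, and thermogenic genes from 0.44 to -0.55. In contrast, triacsin C without SR-3420 gave medians of 0.22, 0.32, 0.01, 0.33 and -0.11 for these 5 lists. All 5 stayed below 0 with DESeq2 size factors and after trends over gene span or GC content were removed from each sample, at -0.63, -0.26, -0.73, -0.80 and -0.63 without the span trend. The counts of called genes in these lists fell when a sample was left out: beta-oxidation had 0 to 3 called in those 10 fits, fewest without vehicle sample 3, and PPAR-responsive genes 2 to 4, fewest without vehicle sample 3 or SR-3420 sample 1. With the replicate number as a block they rose, to 16 and 19 called below 0 in the fit of 16 samples, and from 2 to 42 for the respiratory chain, so the number called depends on how the repeat experiments are modelled; without the span trend the 3 lists had 2, 3 and 0.

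Lists of signals, secreted factors, carriers and glucose use had medians from -0.62 to -0.39; after the span trend was removed these ran from -0.40 to -0.20. Glucose uptake and glycolysis had 4 of 32 called, all below 0 (12.5%; Pdp2, Pfkfb3, Pdk4 and Pgam1), median -0.48, and its median response was 0.63 without inhibitor and 0.11 with triacsin C. Hypoxia-inducible factor targets had 3 of 29 called (10.3%), Ankrd37, Pfkfb3 and Egln3, and a median of -0.39. The median response of this list was above 0 in both arms, 1.02 without inhibitor and 0.64 with triacsin C. Prostaglandin and lipid receptors had 2 of 24 below 0 (Ptges and Ffar4) and 1 above (Ptgfr), 12.5% together, median -0.62. Mitochondrial SLC25 carriers had 3 of 47 (6.38%; Slc25a51, Slc25a34 and Ucp3), median -0.48. Adipokines and adipogenic factors had Apln below and Ncoa1 above, of 26 (7.69%), median -0.61.

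In lists of the broad stress and growth response to SR-3420, 0 to 11.8% of genes were called, and an absence of calls does not show that the responses were alike. Immediate early transcription factors had 0 of 29 called, with median responses of 1.68 without inhibitor and 1.39 with triacsin C; edgeR gave 5 at an unadjusted p under 0.05, and the DESeq2 Wald test called 1. Targets of ATF4 in the integrated stress response had 2 of 39 (5.13%; Atf3 and Fgf21), with medians of 0.91 and 0.86, and MAP kinase feedback genes 2 of 17 (11.8%; Dusp8 and Spry4), with 1.12 and 1.01. Cytosolic heat shock proteins had 2 of 30 (6.67%; Hspa1l and Hspb8). Medians of 0.36 for EGF-family ligands and receptors, 0.15 for cell cycle and DNA replication and 0.14 for the circadian clock were the highest. The EGF list had median responses of 0.70 without inhibitor and 1.14 with triacsin C, and the clock list 0.16 and 0.62. In these 3 lists edgeR called 0 genes, the DESeq2 Wald test 0, 0 and 1, and an unadjusted p under 0.05 was found for 3 of 11, 1 of 48 and 8 of 24. Medians depended on scaling: after the span trend was removed, those of cytosolic and mitochondrial ribosomal proteins, with 0 called of 80 and of 76 (2 and 10 at an unadjusted p under 0.05, 0 and 3 by DESeq2), went from -0.24 and -0.27 to 0.25 and 0.14.

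**Figure D4:**
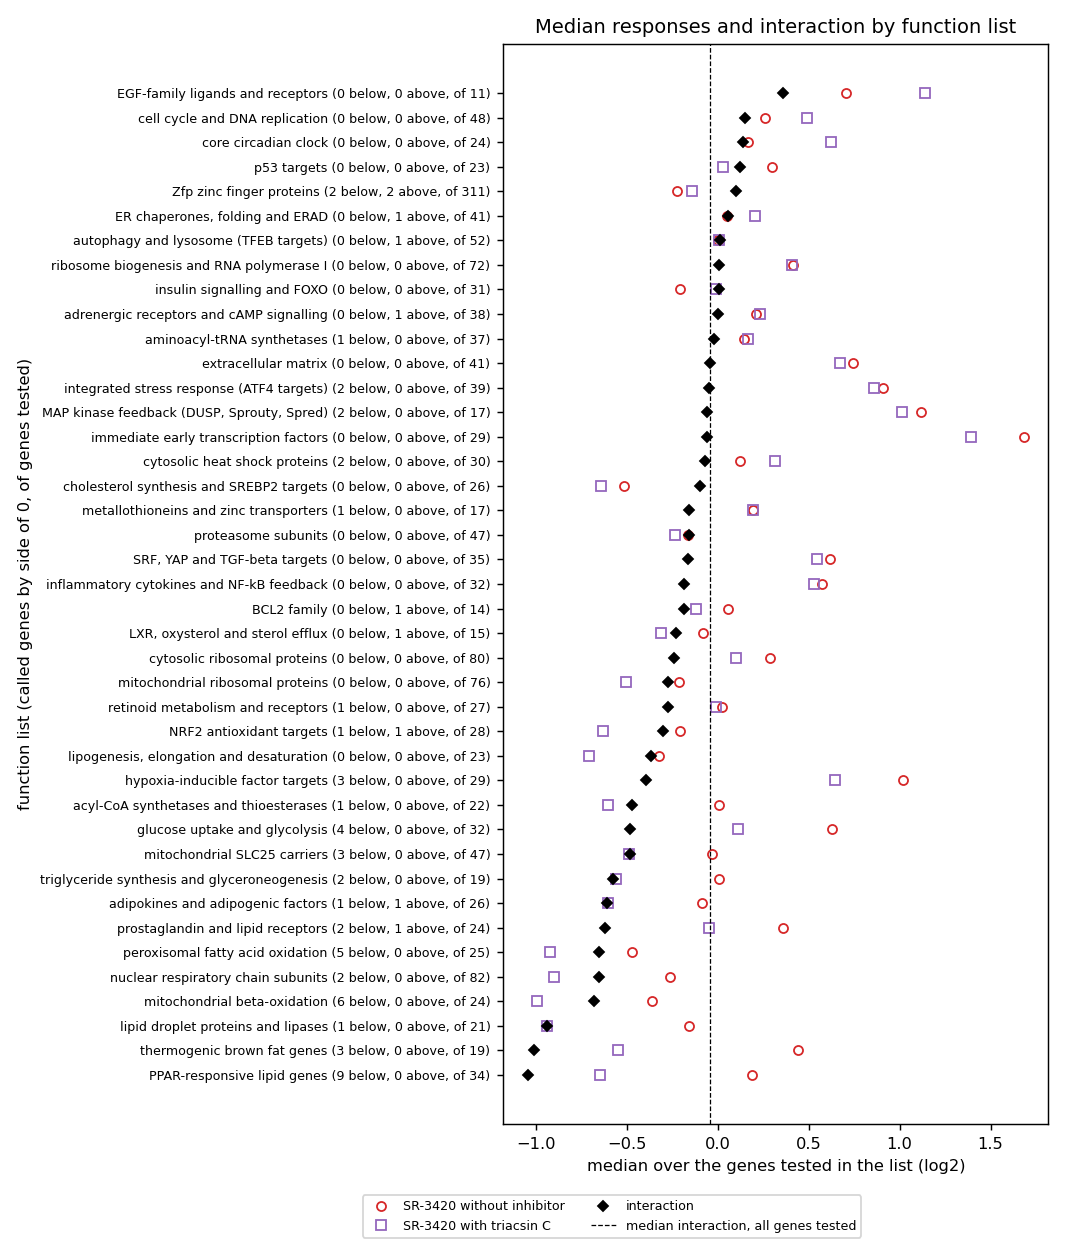
Median log2 response to SR-3420 without inhibitor (circles) and with triacsin C (squares), and median interaction (diamonds), for each of the 41 function lists, with the number of called genes below and above 0 and of genes tested; the dashed line is the median interaction of all genes tested, -0.04. PPAR-responsive lipid genes, at -1.04, have the lowest interaction median, and EGF-family ligands and receptors, at 0.36, the highest.

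Gene length, which the comparison did not use, separated the called genes. Those with an interaction above 0 had a median genomic span of 208300.0 bp and 22 exons, those below 0 had 9145 bp and 5 exons, and all genes tested had 21740.5 bp and 9 exons. Of the 158 genes above 0, 142 (89.9%) spanned over 100 kb, compared with 1 of the 163 below 0 and 1520 of all genes tested (11.9%). Among genes over 200 kb, 82 of 532 (15.4%) were called above 0 and 0 below by edgeR (5 below at an unadjusted p under 0.05, 1 by DESeq2). Among those under 5 kb, 39 of 1653 (2.36%) were called below 0 and 0 above (6 above at an unadjusted p under 0.05, 2 by DESeq2).

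The pattern extended to genes that were not called. The median interaction was -0.48 under 5 kb, -0.21 from 10 to 20 kb, 0.37 from 50 to 100 kb and 0.73 over 200 kb, and across the 12786 genes, which are not independent replicates, Spearman's correlation of the interaction with span was 0.53. In each sample, genes over 200 kb stood at -0.52, -0.71 and -0.62 (median log2 level minus the vehicle mean) with triacsin C. They stood at -0.05 and 0.05 in vehicle, 0.02 and 0.09 with SR-3420, and 0.05, 0.08 and 0.16 with both compounds. So the 3 triacsin C samples differed from the other 7, which overlapped. Genes under 5 kb stood at 0.28, 0.49 and 0.30 with triacsin C and between -0.17 and 0.17 in the other 7 samples.

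**Figure D5:**
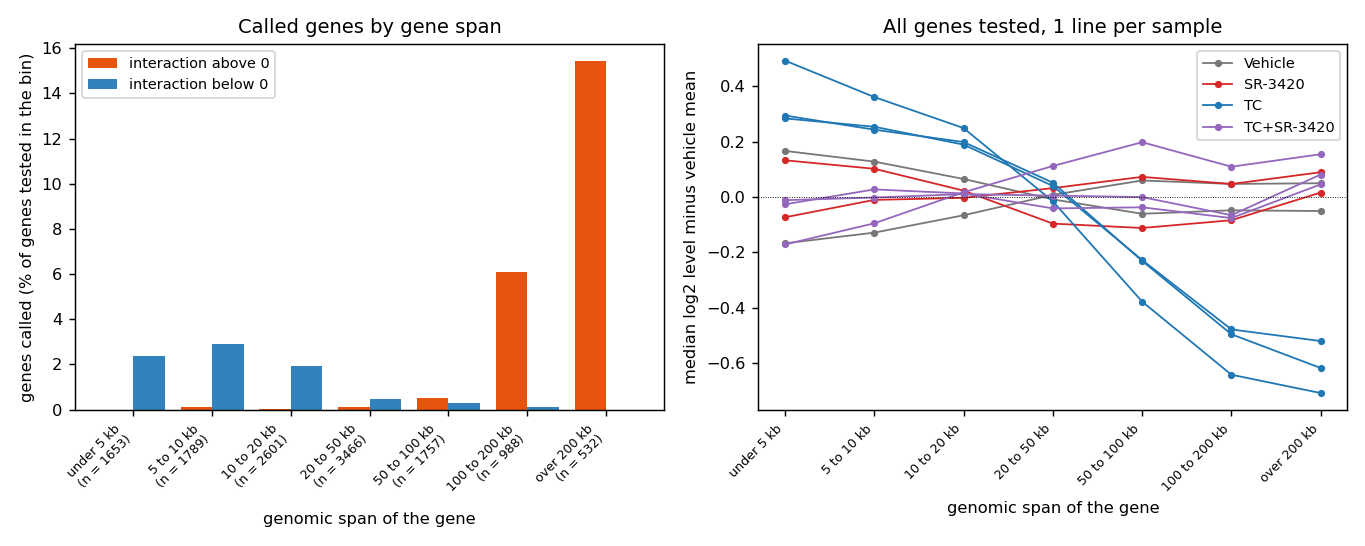
Left, the percentage of tested genes called with an interaction above or below 0 (vertical axis) in 7 bins of genomic span; right, the median log2 level minus the vehicle mean over the genes of each bin, 1 line per sample. In the bin over 200 kb, 15.4% of genes are called above 0, and the 3 triacsin C samples lie at -0.52 to -0.71.

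When the trend over span was removed from each sample, an adjustment chosen after the data were seen, 72 genes were called, 22 above and 50 below 0, of which 60 were among the 321. Those 60 comprised 8 of the 15 weaker, 16 of the 124 stronger and 36 of the 182 opposite genes, and 0 of the 45 stronger rises. Sema3g, Atf3, Angptl4, Bmf, Tmem79, Cpt2, Hadha, Ffar4, Slc25a34, Egln3, Ppara, Acot4 and Jarid2 were among the 60. Of the genes described above, those no longer called were, among the weaker, Fgf21, Mt2, Hmox1, Pdk4, Dusp8 and Fgfr2; among the stronger falls, Acadvl, Eci1, Crat, Ech1, Pex11a, Pex19, Gpd1, Fitm2, Aqp7, Sdha, Ndufv3, Ppp1r3c, Hspb8, Hspa1l, Pdp2 and Hexim1; and among the opposite, Apln, Pgam1, Rxrg, Cpt1b, Ucp3, Mars2, Slc25a51, Esr1, Abcc4, Ncoa1, Osbpl3, Pde8a, Reps2, Zfhx4, Itpr2, Plce1 and Prkce. Of the 23 strictly reversed genes, Fzd5, D930015E06Rik, Kif13b, Man1a, Mfsd7c, Smarca2 and Zfp704 were also lost. A lost call does not by itself show that the difference went away. In every alternative run, this one included, the interaction stayed at -2.85 or lower for Ppp1r3c (-3.33 in the main fit). It stayed at -1.83 or lower for Apln (-2.17) and -1.90 or lower for Ucp3 (-2.15). For other genes it shrank, as for Mt2 (-0.65) and Fgf21 (-1.02). Why long genes were lower in the triacsin C samples was not tested, and neither was the part that RNA quality or the proportion of unspliced RNA might have. The deposited counts were made by gene with iRNA-seq, and intron reads may be among them.

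The genes Acsl1, Acsl3, Acsl4, Acsl5, Abhd5, Pnpla2, Plin2 and Cyp26b1 were not called in the main fit, though some were under alternatives. Acsl1, the main long-chain acyl-CoA synthetase of adipocytes, had 15953 and 17363 in vehicle, 15832 and 18863 with SR-3420, 9572, 8642 and 9748 with triacsin C, and 6245, 6467 and 7660.4 with triacsin C and SR-3420. Both groups with triacsin C lay below both without it, a difference of -0.84 ± 0.23 (adjusted p = 0.029) without SR-3420, and the interaction was -0.52 ± 0.33 (adjusted p = 0.45). Acsl3, Acsl4 and Acsl5 had interactions of 0.72 (adjusted p = 0.56), 1.04 (adjusted p = 0.52) and 0.13 (adjusted p = 0.87), and Acsl3 overlaps another gene. Abhd5 had 2137 and 2526 in vehicle, 1528 and 2082 with SR-3420, 2115, 2207 and 2491 with triacsin C, and 1231, 1506 and 1578 with triacsin C and SR-3420. Its interaction was -0.29 ± 0.31 (adjusted p = 0.64). Pnpla2 had 42892 and 26301 in vehicle, 38736 and 23248 with SR-3420, 30449.9, 42775 and 30952 with triacsin C, and 15944, 14589 and 10408 with triacsin C and SR-3420. The samples with both compounds were lowest, although the interaction, -1.19 ± 0.48 (adjusted p = 0.23), did not pass. Plin2, a coat protein of lipid droplets, and Cyp26b1, which degrades retinoic acid, had interactions of -0.87 (adjusted p = 0.18) and -1.01 (adjusted p = 0.092). With the replicate number as a block over 16 samples, 3 of these genes were called, at -1.12 (adjusted p = 0.036) for Pnpla2, -0.88 (adjusted p = 0.014) for Plin2 and -0.92 (adjusted p = 0.021) for Cyp26b1. The blocked fit of 10 samples also called Acsl1, at -0.49 (adjusted p = 0.032), and Acsl4, at 1.02 (adjusted p = 0.034). Without a trend over GC content the calls were -0.53 (adjusted p = 0.034) for Abhd5, -0.75 (adjusted p = 0.044) for Pnpla2 and -0.69 (adjusted p = 0.044) for Plin2.

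The p-values cover the spread between cultures of a single line, and with 2 samples in each group without triacsin C, the level of each called gene before and after SR-3420 rests on few libraries. A gene that was not called is not thereby shown to respond alike.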

How the data were processed

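The authors aligned the reads with STAR 2.4.2a to mouse genome build mm9, used HOMER to keep 1 read of each length at a position, counted reads on genes with iRNA-seq and deposited the raw counts of 20295 genes in 16 samples; iRNA-seq was run with its option for counts by gene, and what that option does with intron reads and whether strand was used are not given in the sources used here. All 16 columns matched a sample by name. Genes were filtered with filterByExpr by group, leaving 12786. Counts were scaled by TMM, and 1 quasi-likelihood model of 6 groups over 16 samples was fitted in edgeR 4.0.16 (R 4.3.3). The 6 samples with 50 µM etomoxir are not part of the interaction but enter the filter, the scaling and the estimate of spread; without them 271 genes were called, 231 of them among the 321. Over all genes tested, p-values of a contrast were adjusted by Benjamini-Hochberg, with calls at an adjusted p under 0.05. Weaker, stronger and opposite follow from the signs and sizes of the 2 fitted responses. Normalized counts are TMM-scaled counts per sample.

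The 81 named genes are, per class and side of the interaction, up to 5 called genes with the largest interaction among those whose normalized count averaged 50 or more over the 10 samples, called members of the 41 function lists, and 10 genes fixed by role (Acsl1, Acsl3, Acsl4, Acsl5, Abhd5, Pnpla2, Pdk4, Plin2, Ffar4 and Cyp26b1). Some of them are not reported here. Members, lists and tests were chosen with earlier results of these data known. Span comes from the deposited positions, exons (12669 genes tested) and GC content (12616) from the annotation of the same build. Replicates of a group differed by more than sampling noise, with a chi-square per degree of freedom of 3.76 to 57.2 over 8 pairs. The code was tested on simulated data. Alternatives were DESeq2 size factors, the Wald test of DESeq2 1.42.0, 2 other filters, only the 10 samples compared, a replicate block, each sample left out, a minimum log2 of 1, overlapping genes left out, and trends over span or GC content removed. Plots were made in Python 3.11.15 with matplotlib 3.10.9.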

Additional observations from a re-analysis of the deposited data

Results flagged for a closer look

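The response to SR-3420 differed between cells with and without triacsin C, by the test of the interaction itself, for 321 genes. Named genes are given here with their log2 interactions because their responses in the 2 arms differed by that test.

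The rise in log2 was weaker with triacsin C, by -2.83 for Sema3g, -1.57 for Fgf21, -1.45 for Atf3, -1.24 for Mt2 and -1.23 for Angptl4. Normalized counts averaged higher with both compounds than with SR-3420 alone for Atf3 (5638 against 2515) and Mt2 (12836 against 2893). For Sema3g they averaged lower (130 against 421). For Fgf21 and Angptl4 the effect of triacsin C in the presence of SR-3420 did not pass (adjusted p = 0.21 and 0.24). The fall was weaker by 2.54 for Bmf, 2.04 for Ptgfr, 0.86 for Fgfr2 and 0.83 for Irf4. A stronger fall was found, with an interaction of -3.33 for Ppp1r3c, -2.43 for 2010003K11Rik, -2.19 for Gp1ba and -2.18 for Tmem79. A stronger rise had interactions of 1.44 for Trabd2b, 1.29 for Hivep2, 1.27 for Usp6nl, 1.21 for Lyst and 1.21 for Irf2. Fitted responses had opposite signs, lower with triacsin C, at -6.45 for Pmp2, -4.25 for Tmem82, -3.99 for Ffar4 and -3.40 for Slc25a34. They had opposite signs, higher with triacsin C, at 3.37 for Reps2, 2.32 for Ralgps1, 1.96 for Esr1, 1.92 for Zfhx4 and 1.88 for Jarid2. The response without inhibitor did not pass for Pmp2, at 0.95 (adjusted p = 0.31), or Zfhx4, at -0.30 (adjusted p = 0.66). For Reps2 the response with triacsin C, 1.17, did not pass (adjusted p = 0.053). In each of these cases 1 sign is uncertain. In the 10 fits leaving out a sample, Fgfr2 was called in 0, Irf4, Usp6nl and Lyst in 1, Zfhx4 in 2 and Reps2 in 6. After the trend over gene span was removed, all 5 stronger rises given here lost their call, as did Fgf21, Mt2, Fgfr2, Ppp1r3c, Reps2, Esr1 and Zfhx4. In every alternative run, Ppp1r3c stayed at -2.85 or lower and Reps2 at 2.76 or higher, so their lost calls do not show that the difference went away. Others came closer to no difference, with values nearest to it of -0.65 for Mt2 and 0.41 for Fgfr2. The causes of these differences were not tested.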

How the results depend on the processing

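Counts are given in the order all called genes, above 0, below 0, weaker, stronger, opposite and reversed, which were 321, 158, 163, 15, 124, 182 and 23. The Wald test of DESeq2 gave 832, 445, 387, 32, 376, 424 and 43, with all 321 genes among its calls, and 1604 genes for SR-3420 without inhibitor in place of 964. Without a filter beyond a count above 0, which tests more genes and also changes the estimate of spread, calls were 163 (88 above, 75 below, 46 stronger and 107 opposite). A minimum log2 of 1 left 94 above 0 and 72 stronger, with 430, 1893 and 705 genes for SR-3420 without inhibitor, SR-3420 with triacsin C, and triacsin C without SR-3420 in place of 964, 4722 and 1497. Removing the trend over gene span, chosen after the data were seen, gave 72, 22, 50, 6, 17, 49 and 9, and 826 genes for triacsin C without SR-3420. Removing the trend over GC content, also chosen after the data were seen, gave 1520, 908, 612, 64, 730, 726 and 89, and 3043, 7095 and 3298 genes for the 3 comparisons. For these differences the cause was not tested.

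With the replicate number as a block, the fit of 16 samples gave 1669, 737, 932, 76, 729, 864 and 73, and 2438, 7185 and 3072 genes for the 3 comparisons; the blocked fit of 10 samples gave 3170, 1456, 1714, 164, 1184, 1822 and 151, and 2853, 7554 and 3462. All 321 genes were among the calls of both blocked fits. The samples share only a number: of 12 pairs with the same number, 10 had deviations from their group means correlated over 0.1, and r ranged from -0.24 to 0.64. Of 25 pairs with different numbers, 8 were also over 0.1, with r up to 0.60. In a group of 2 samples the deviations are mirror images, so some of these values only repeat same-numbered ones. They therefore cannot decide whether the numbers pair the samples. Pairs numbered 3 had r from 0.43 to 0.64 and pairs numbered 2 from 0.33 to 0.60. Both negative same-numbered pairs held triacsin C sample 1, at -0.24 and -0.15. Whether same-numbered samples belong together was not tested.

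Leaving out 1 sample gave, from lowest to highest over the 10 fits, 53 to 179 called genes, 20 to 94 above 0, 28 to 106 below 0, 3 to 11 weaker, 13 to 58 stronger, 35 to 121 opposite and 5 to 20 reversed. SR-3420 without inhibitor gave 306 to 866, SR-3420 with triacsin C 3506 to 4748, and triacsin C without SR-3420 702 to 1478. Where a group of 2 lost a sample, the lone sample was assumed to vary like the other groups. Of 73 named genes called, 17 were called in all 10 of these fits and 14 under every alternative run, and no named gene's call changed direction. Every alternative here means each that tested the gene, which for Pmp2, Ralgps1 and Ankrd37, among the 14, was 20 of 21. Of 861 list medians compared, 171 moved by more than the spread between replicates. Raw counts in vehicle were only 3 to 12 for Pmp2 and Fgf21, and each group without triacsin C had 2 samples.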

Other observations

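The series also holds cells pretreated with etomoxir, an inhibitor of carnitine palmitoyltransferase 1, which blocks the entry of acyl groups into mitochondria after their activation. Over the 79 stronger falls, the median response to SR-3420 was -0.76 with etomoxir, -0.34 without inhibitor and -1.68 with triacsin C. Over the 108 opposite genes with an interaction above 0 it was -0.23, -0.33 and 0.80, and over the 45 stronger rises 0.33, 0.15 and 1.13. For Cpt2 the response was -1.31 (adjusted p = 3.7e-05) with etomoxir, and for Gpd1 -0.76 (adjusted p = 0.0076). Egln3 rose with SR-3420 after etomoxir by 2.08 (adjusted p = 0.00012) and Ankrd37 by 1.73 (adjusted p = 2.3e-05), whereas after triacsin C their responses were -0.50 and -0.77. Jarid2 gave -0.07 (adjusted p = 0.72) and Ffar4 0.28 (adjusted p = 0.55). Whether the responses with the 2 inhibitors differ was not tested.

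Cd68, a lysosomal membrane protein used as a macrophage marker, was called with an interaction of -1.98 ± 0.36 (adjusted p = 0.014) and was chosen here after its value was seen; it was called in 8 of the 10 fits leaving out a sample (adjusted p up to 0.096). It had 69.8 and 46.0 in vehicle, 116 and 71.5 with SR-3420, 211, 235 and 217 with triacsin C, and 91.2, 101 and 78.9 with triacsin C and SR-3420, highest in the 3 triacsin C samples. The macrophage markers Ptprc, Emr1 and Itgam had at most 14, 3 and 6 counts in any sample. Fcgr1, another of them, had 2 to 67 counts and an interaction of -2.19 (adjusted p = 0.25). The remaining tested markers, Csf1r and Cd14, had interactions of 0.43 and -0.37 and were not called.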
